A study of Mus musculus with 8 samples.

Results

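The miRNAs described here come from the miR-143/miR-145 and miR-199/miR-214 clusters, which are known as miRNAs of mesenchymal cells such as smooth muscle cells, fibroblasts and, in the liver, stellate cells. They were chosen by name, with earlier results of these data known, as 8 rows of the count table, among 1978 rows of mouse mature miRNAs. Of the 8 rows, 7 had reads in at least 1 library, and 5 had enough reads for the model fitted across all miRNAs, in which 180 of the 800 mouse miRNAs with reads were tested. The libraries came from the 3A line of murine hepatocytes, which does not form tumours, and from extracellular vesicles (EVs) collected from its medium. All cells had been infected with a retroviral pSUPER vector and kept under puromycin selection, and carried either a scrambled shRNA (shCTR) or an shRNA against the RNA-binding protein PCBP2 (shPCBP2). The medium contained EV-depleted FBS and was conditioned for 72 h. Each line gave cells and EVs, which makes 4 groups of 2 biological replicates. The study asked whether PCBP2 retains miRNAs in the cell, so the groups were compared as EVs against cells, as shPCBP2 against shCTR in each compartment, and as the EV/cell ratio of one line against that of the other.

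Mature miRNAs are cut from either arm of a hairpin, the 5p or the 3p arm, and pair with target mRNAs mainly through the seed, here bases 2 to 8. miR-143 and miR-145 are made from a shared primary transcript and are known for their part in smooth muscle differentiation. miR-199a and miR-214 share the non-coding transcript Dnm3os, and in liver both have been studied in activated stellate cells and fibrosis. EVs are small membrane vesicles that carry miRNAs out of the cell. SYNCRIP is a protein that binds the hEXO motif of miRNAs and loads them into EVs. PCBP2 was studied as its counterpart for miRNAs with a CELL motif, the core of which is AUUA or AUUG. Among the miRNAs it examined, the paper reported PCBP2 binding where both CELL and hEXO motifs were present, not with either alone.

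The mature sequences are shown because the rows of miR-199a-3p and miR-199b-3p cannot be told apart by them. They are RefSeq entries on GRCm38.p6, and capitals mark the seed.
miR-199a-3p: aCAGUAGUcugcacauugguua
miR-199b-3p: aCAGUAGUcugcacauugguua
miR-199a-5p: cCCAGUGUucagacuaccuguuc
miR-214-3p: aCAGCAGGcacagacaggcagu
miR-214-5p: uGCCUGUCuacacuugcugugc
The sequences of miR-199a-3p and miR-199b-3p are identical over all 22 bases. This sequence lies in the hairpins Mir199a-2 (chr1:162217883-162217904, plus strand), Mir199a-1 (chr9:21496498-21496519, minus strand) and Mir199b (chr2:32318524-32318545, plus strand). miR-199a-5p lies in both Mir199a hairpins, at chr1:162217844-162217866 and chr9:21496537-21496559. Where it aligns to the Mir199b hairpin, the sequence there is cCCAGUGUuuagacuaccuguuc, which differs by 1 substitution, C10U, counted from 1 at the 5′ end with the base of miR-199a-5p given before the position. miR-214-3p and miR-214-5p lie at chr1:162223438-162223459 and chr1:162223397-162223418 on the plus strand. Mir199a-2 and Mir214 both fall in an exon of Dnm3os, on its strand, with 5444 bases between the hairpins, and this locus lies opposite an intron of Dnm3. Mir199a-1 lies opposite an intron of Dnm2, and Mir199b opposite an intron of Dnm1. miR-143-3p, miR-145a-5p and miR-199b-5p are named only.

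Each library held between 26391248 and 38166798 counted reads, and cel-miR-39, a nematode miRNA added as a spike-in, took 57.4 to 66.9% of them in cells and 97.6 to 98.4% in EVs. The reads left for mouse miRNAs numbered 8745848 to 12732173 in the cell libraries and 503070 to 687592 in the EV libraries. A level below is the number of reads of a miRNA per 1000000 spike-in reads of the same library. A group with at most 3 reads in both libraries was taken to be at the floor, and a fold against it was computed with 3 reads per library and is a bound. Reads are not independent molecules, so floors and intervals cover counting error only. As a check of the labelled cell type, miR-194-5p, which hepatocytes express, ranked between 14 and 16 by reads in the cell libraries. But miR-122-5p, the main miRNA of adult hepatocytes, ranked only between 163 and 178, with 356 to 485 reads. Of the other hepatocyte miRNAs listed, miR-192-5p ranked between 60 and 67 and miR-101b-3p between 104 and 114. miR-148a-3p had only 7 to 75 reads and miR-101a-3p 1 to 87, so the check is mixed.

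The rows of these clusters were scarce in the hepatocytes and common in their EVs. Summed over the 8 rows, 490 and 319 reads were counted in shCTR cells, 163 and 333 in shPCBP2 cells, 6170 and 2683 in shCTR EVs, and 4202 and 4274 in shPCBP2 EVs. As a share of the mouse reads this was 0.00186 to 0.00385% in cells and 0.485 to 0.897% in EVs. The exact binomial 95% interval of the lowest EV share was 0.467 to 0.503% and that of the highest cell share 0.00352 to 0.00421%. As a level, the sum was 9.24 to 27.5 in cells and 103 to 222 in EVs, so that every EV library lay above every cell library on both scales. In such bulk samples, fewer cells or vesicles of a kind and less RNA in each cannot be told apart.

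**Figure D1:**
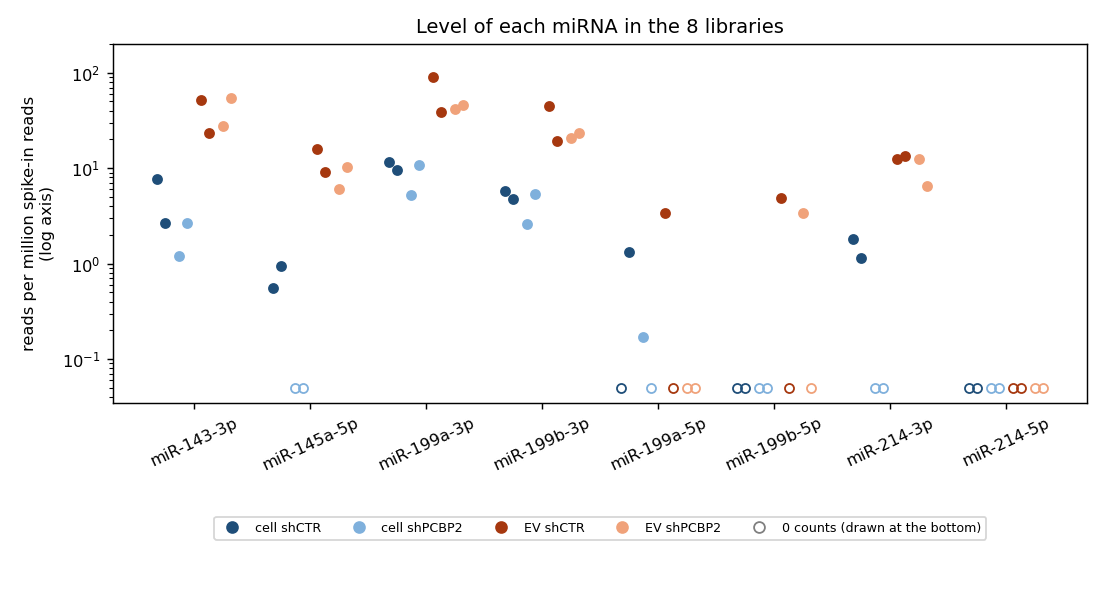
Level of each of the 8 miRNAs (vertical log axis, reads per 1000000 spike-in reads) in the 8 libraries, with 1 point per library coloured by group and open points at the bottom for 0 counts. For miR-143-3p, miR-145a-5p, miR-199a-3p, miR-199b-3p and miR-214-3p the 4 EV points lie above the 4 cell points, while the 5p arms of miR-199a and miR-199b have few points above 0 and miR-214-5p has none.

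mmu-miR-143-3p, the abundant arm of its hairpin, had 138 and 42 reads in shCTR cells, 21 and 47 in shPCBP2 cells, 1445 and 601 in shCTR EVs, and 1045 and 1650 in shPCBP2 EVs. Its level was 7.74 and 2.67 in shCTR cells, 1.19 and 2.64 in shPCBP2 cells, 52.0 and 23.1 in shCTR EVs, and 27.8 and 54.3 in shPCBP2 EVs. All EV libraries were higher than all cell libraries, and replicate 1 of shCTR cells stood above the other cell libraries. In shCTR the EV level was 7.21-fold the cell level, a log2 difference of 2.85 (standard error 1.01, Benjamini-Hochberg adjusted p = 0.0460, edgeR quasi-likelihood test). In shPCBP2 it was 21.4-fold, a log2 difference of 4.42 (standard error 1.09, adjusted p = 0.0112, same test).

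mmu-miR-145a-5p, the partner of miR-143 in the cluster, was rarer. It had 10 and 15 reads in shCTR cells, 0 in both shPCBP2 cell libraries, 441 and 235 in shCTR EVs, and 225 and 310 in shPCBP2 EVs. The levels were 0.561 and 0.953 in shCTR cells, 15.9 and 9.03 in shCTR EVs, and 5.99 and 10.2 in shPCBP2 EVs, while a count of 0 allows a level of up to 0.170 and 0.168 in the shPCBP2 cell libraries. The compartments did not overlap, and the cell libraries of the silenced line were the only libraries without a read. The EV level was 16.4-fold the cell level in shCTR, a log2 difference of 4.03 (standard error 1.06, Benjamini-Hochberg adjusted p = 0.0206, edgeR quasi-likelihood test). In shPCBP2 it was at least 47.8-fold higher (adjusted p = 0.00193, same test).

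mmu-miR-199a-3p had the most reads of the 8 rows in 7 of the 8 libraries, and miR-143-3p had more in replicate 2 of shPCBP2 EVs. It had 208 and 149 reads in shCTR cells, 93 and 191 in shPCBP2 cells, 2475 and 1000 in shCTR EVs, and 1560 and 1409 in shPCBP2 EVs. The levels were 11.7 and 9.47 in shCTR cells, 5.27 and 10.7 in shPCBP2 cells, 89.1 and 38.4 in shCTR EVs, and 41.6 and 46.3 in shPCBP2 EVs. Again each EV library lay above each cell library, and replicate 1 of shCTR EVs was well above the other 3 EV libraries. The EV level was 6.03-fold the cell level in shCTR, a log2 difference of 2.59 (standard error 0.81, Benjamini-Hochberg adjusted p = 0.0288, edgeR quasi-likelihood test), and 5.49-fold in shPCBP2, a log2 difference of 2.46 (standard error 0.80, adjusted p = 0.0346, same test).

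The row of mmu-miR-199b-3p followed that of miR-199a-3p read for read. It had 102 and 74 reads in shCTR cells, 46 and 95 in shPCBP2 cells, 1238 and 500 in shCTR EVs, and 780 and 705 in shPCBP2 EVs. The ratio of miR-199a-3p to miR-199b-3p reads was between 2.00 and 2.04 in the 8 libraries, and in 7 of them the larger count was within 1 read of 2 times the smaller. The largest gap was 4 reads, in replicate 1 of shCTR cells. Given the shared sequence printed above, which 2 Mir199a hairpins and 1 Mir199b hairpin hold, the rows give 1 measurement of the miR-199-3p sequence, and the level of each alone is uncertain. The values of miR-199b-3p in the fit are therefore no separate result. Its EV level was 6.11-fold the cell level in shCTR (Benjamini-Hochberg adjusted p = 0.0373, edgeR quasi-likelihood test) and 5.53-fold in shPCBP2 (adjusted p = 0.0435, same test).

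**Figure D2:**
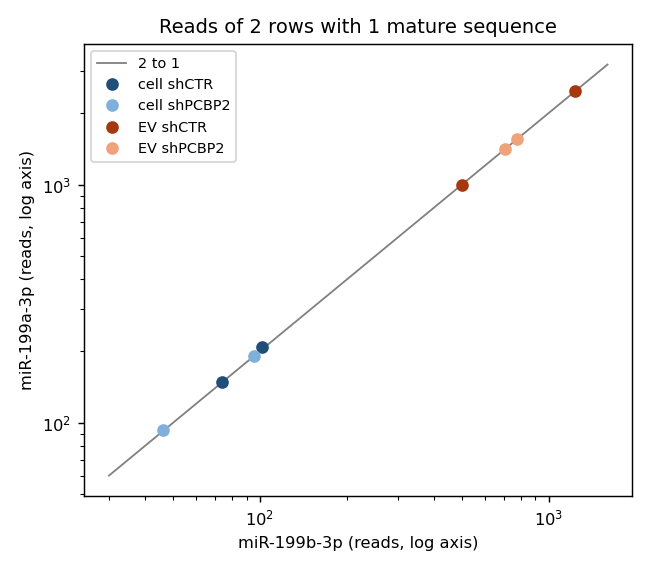
Reads of miR-199a-3p (vertical log axis) against reads of miR-199b-3p (horizontal log axis) in the 8 libraries, coloured by group, with a grey line where miR-199a-3p has 2 reads for each read of miR-199b-3p. All libraries lie on or next to the line, from 93 and 46 reads in a shPCBP2 cell library to 2475 and 1238 in an shCTR EV library.

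mmu-miR-214-3p, which is encoded beside miR-199a on chromosome 1, had 32 and 18 reads in shCTR cells, 0 in both shPCBP2 cell libraries, 343 and 347 in shCTR EVs, and 464 and 200 in shPCBP2 EVs. Its levels were 1.80 and 1.14 in shCTR cells, 12.4 and 13.3 in shCTR EVs, and 12.4 and 6.58 in shPCBP2 EVs, with a floor of 0.170 and 0.168 in the shPCBP2 cell libraries. As for miR-145a-5p, only the cell libraries of the silenced line had no read. The EV level was 8.71-fold the cell level in shCTR, a log2 difference of 3.12 (standard error 0.98, Benjamini-Hochberg adjusted p = 0.0370, edgeR quasi-likelihood test). In shPCBP2 it was at least 56.0-fold higher in EVs (adjusted p = 0.00154, same test). Its seed is shared with miR-761, which had no read in these libraries.

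The 3 remaining rows were too sparse to be tested. mmu-miR-199a-5p had 94 reads in replicate 1 of shCTR EVs, 21 in replicate 2 of shCTR cells, 3 in replicate 1 of shPCBP2 cells and 0 in the other 5 libraries. mmu-miR-199b-5p had 134 reads in replicate 1 of shCTR EVs, 128 in replicate 1 of shPCBP2 EVs and 0 elsewhere. Neither row had reads in both replicates of any group. mmu-miR-214-5p, the minor arm of its hairpin, had 0 reads in all 8 libraries, which allows a level of up to 0.191 in the cell library with the fewest spike-in reads and 0.115 in such an EV library. In a fit with no filter on low counts, neither miR-199a-5p nor miR-199b-5p passed the test in any comparison, those between shPCBP2 and shCTR included. The nearest to passing was miR-199b-5p for EVs against cells in shCTR (Benjamini-Hochberg adjusted p = 0.188, edgeR quasi-likelihood test).

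Thus all 5 rows that could be tested were higher in EVs than in cells, in shCTR and in shPCBP2. Since miR-199a-3p and miR-199b-3p are 1 measurement, these rows stand for 4 miRNAs. With the 2 summed, 4 of 4 were called in each line. Among all tested miRNAs, 12 of 180, or 6.67%, were higher in EVs in shCTR, and 14 of 180, or 7.78%, in shPCBP2, with the same test and threshold. Since the rows were chosen with earlier results of these data known, these shares and the exact tests below are descriptions, not independent support. The median log2 EV/cell difference of the 5 rows was 2.85 in shCTR against -4.93 over all tested miRNAs, and 4.42 in shPCBP2 against -4.90. The value of 4.42 was the same with miR-145a-5p and miR-214-3p at their bounds. These and later medians of the 5 rows count the miR-199-3p sequence as 2 rows. Since the filter asks for reads in 2 or more libraries of each compartment, the 3 rows it left out are not part of these medians. An exact permutation test of the 4 EV against the 4 cell libraries gave p = 0.0286, two-sided, for each of the 5 rows, the smallest p that it allows. The same separation of every EV library from every cell library was found for 15 of the 180 tested miRNAs, or 8.33%. The exact test gave p = 0.657 for miR-199a-5p and p = 0.429 for miR-199b-5p with the spike-in. With each of the other 3 scalings the exact test gave p = 0.0286 for miR-199b-5p, although 2 of its 4 EV libraries held no read and took their value from the 1 count that was added.

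**Figure D3:**
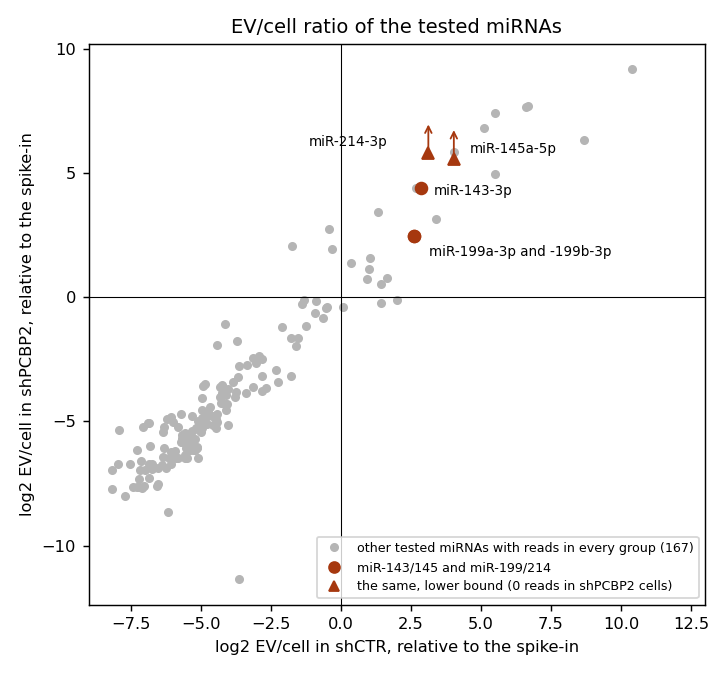
Log2 EV/cell difference relative to the spike-in, in shCTR (horizontal axis) and shPCBP2 (vertical axis), with 1 point per tested miRNA. The 5 coloured points lie above 0 on both axes, with triangles for the lower bounds of miR-145a-5p and miR-214-3p. Of the other tested miRNAs, 167 with reads in every group are drawn and 8 without are not, and most of those drawn lie below 0 on both axes.

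The spike-in sets the zero of this scale. Relative to the other mouse miRNAs, the difference was larger. When TMM factors, size factors by median of ratios or total mouse counts replaced the spike-in, the median over all tested miRNAs in shCTR moved from -4.93 to -0.17, -0.15 and 0.06. The log2 differences of the 5 rows were then 7.34 to 8.77, 7.31 to 8.77 and 7.54 to 8.98, while the share of tested miRNAs that were higher in EVs rose to 23.3, 22.2 and 23.9%. On the scale of mouse reads, the EV libraries lay above all cell libraries for 55 of 180 tested miRNAs, or 30.6%. Between 183 and 202 mouse miRNAs had reads in an EV library and between 466 and 599 in a cell library, so ranks by reads cannot be compared between the compartments. Within the EV libraries, miR-199a-3p ranked between 52 and 66, miR-143-3p between 52 and 80, miR-145a-5p between 95 and 126 and miR-214-3p between 95 and 110.

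The rows did not keep fixed proportions among themselves. miR-143-3p had 2.56 to 5.32 reads for each read of miR-145a-5p in the 4 EV libraries, and 13.8 and 2.80 in the shCTR cell libraries. In the EVs the ratio was 3.28 and 2.56 in shCTR and 4.64 and 5.32 in shPCBP2. These ratios are given as a description, without a test of the difference between the lines. The miR-199-3p rows together had 10.8 and 4.32 reads per read of miR-214-3p in shCTR EVs, and 5.04 and 10.6 in shPCBP2 EVs, so that replicates differed as much as groups. In shCTR cells this ratio was 9.69 and 12.4. Against miR-143-3p, miR-199-3p had 1.28 to 2.57 times the reads in EVs and 2.25 to 6.62 times in cells. The 3p arm held 94.2 to 100% of the reads of the miR-199 hairpins in EVs and 91.4 to 100% in cells.

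Replicates of a group differed widely for some of these miRNAs. Between the shCTR EV replicates, replicate 1 was 2.25-fold higher for miR-143-3p, 1.76-fold for miR-145a-5p and 2.32-fold for miR-199a-3p, but for miR-214-3p replicate 2 was 1.08-fold higher. The absolute log2 differences were 1.17, 0.82, 1.21 and 0.11, against a median of 0.42 over the tested miRNAs with reads in both libraries. Between the shPCBP2 EV replicates, replicate 2 was 1.95-fold higher for miR-143-3p and 1.70-fold for miR-145a-5p, while miR-214-3p was 1.88-fold higher in replicate 1. In shCTR cells, replicate 1 was 2.90-fold higher for miR-143-3p but only 1.23-fold for miR-199a-3p. The comparison in shCTR rests on these libraries. Without replicate 1 of shCTR EVs, or without either replicate of shCTR cells, none of the 5 rows passed the test for EVs against cells in shCTR, and the log2 difference was 1.86, 2.75 and 2.45 for miR-199a-3p and 2.15, 3.81 and 2.28 for miR-143-3p, in this order. Their direction did not change in any of these fits. Without replicate 1 of shPCBP2 cells, only miR-145a-5p and miR-214-3p passed in shPCBP2. In that line the log2 difference of miR-143-3p was 3.86 without replicate 2 of shPCBP2 EVs and 5.10 without replicate 2 of shPCBP2 cells, and in the fit without the latter that of miR-199a-3p was 3.06.

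Low counts were rarer in the EV libraries. Of the mouse counts above 0, 42.3% in cells but only 3.68% in EVs were between 1 and 40, and the smallest count above 0 of the 8 miRNAs was 94 in EVs and 3 in cells. The part of this difference in the zeros of the sparse rows was not tested.

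Silencing of PCBP2 gave no call for these miRNAs in EVs. The 5 tested rows had log2 differences of 0.13 (standard error 0.94) for miR-143-3p, -0.62 (0.94) for miR-145a-5p, -0.54 (0.76) for miR-199a-3p, -0.54 (0.82) for miR-199b-3p and -0.44 (0.90) for miR-214-3p. All adjusted p were 0.816 or more (Benjamini-Hochberg, edgeR quasi-likelihood test), and none of the 5 had an unadjusted p under 0.05. DESeq2 and limma voom called none of the 5 either, where they called 27 and 4 of 180 tested miRNAs. In the edgeR fit, 13 of 180 tested miRNAs, or 7.22%, passed in either direction. The median of the 5 rows was -0.54, the value of the miR-199-3p rows, and the median of all tested miRNAs was also -0.54. The EV levels given above overlap between shCTR and shPCBP2 for miR-143-3p, miR-145a-5p, miR-199a-3p and miR-214-3p. Differences of the size of these errors were not detectable with 2 libraries in a group.

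In the cells, miR-145a-5p and miR-214-3p went from a few reads in both shCTR libraries to no read in either shPCBP2 library. miR-214-3p was at least 8.69-fold lower (unadjusted p = 0.00209, Benjamini-Hochberg adjusted p = 0.110, edgeR quasi-likelihood test). miR-145a-5p was at least 4.48-fold lower (unadjusted p = 0.00404, adjusted p = 0.110, same test). Neither passed the correction. Both rows met the cell part of the filter through shCTR alone, the group where they are higher, so these tests are not independent of the filter. Without the filter the adjusted p was 0.346 for each (Benjamini-Hochberg, edgeR quasi-likelihood test). The adjusted p ranged from 0.00217 to 0.651 over 19 alternatives for miR-214-3p, with 3 under 0.05, and from 0.0157 to 0.651 for miR-145a-5p, with 1 under 0.05. The reads behind these differences were 32 and 18 for miR-214-3p and 10 and 15 for miR-145a-5p. miR-143-3p had a log2 difference of -1.44 (standard error 0.97), miR-199a-3p of -0.40 (0.77) and miR-199b-3p of -0.39 (0.83), with adjusted p from 0.671 to 0.938 (same test). The number of calls over all miRNAs was 0 of 180, or 0%, with 25 at an unadjusted p under 0.05, 18 calls with DESeq2, 16 with limma voom, 5 with TMM factors and 39 when the 4 cell libraries were fitted alone. Of the 5 rows, DESeq2 called 2, limma voom 0, and TMM factors and the fit to the 4 cell libraries called miR-214-3p alone. The median of the 5 rows was -1.44, with or without the bounds, and that of all tested miRNAs -0.49. The former is the value of miR-143-3p and counts the miR-199-3p sequence as 2 rows.

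**Figure D4:**
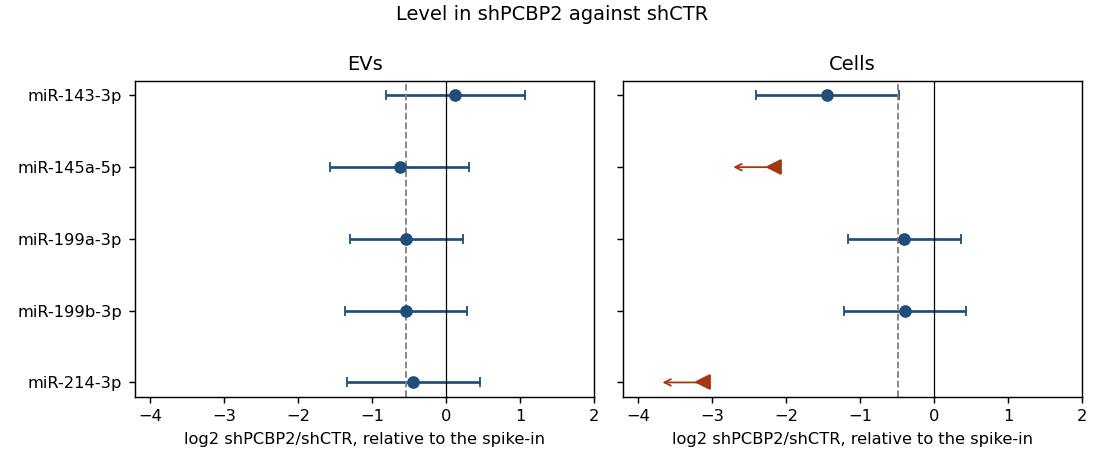
Log2 difference of shPCBP2 against shCTR, relative to the spike-in, in EVs (left) and cells (right) for the 5 tested miRNAs, with points for the fitted difference, bars for 1 standard error and triangles with arrows for bounds against a group without reads. The dashed line is the median of all tested miRNAs, -0.54 in EVs and -0.49 in cells. In EVs all bars cross 0, and in cells miR-145a-5p and miR-214-3p are bounds well below 0.

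The EV/cell ratio, the measure the study was built on, combines these comparisons. For miR-214-3p it was, in shPCBP2, at least 6.41-fold higher (unadjusted p = 0.00513, Benjamini-Hochberg adjusted p = 0.103, edgeR quasi-likelihood test). For miR-145a-5p it was at least 2.91-fold higher (unadjusted p = 0.0110, adjusted p = 0.180, same test). Both bounds rest on shPCBP2 cell libraries without reads, and the EV levels of these miRNAs overlapped between the lines. As in the cell comparison, both rows met the cell part of the filter through shCTR alone, so these tests are not independent of the filter. Without the filter the adjusted p was 0.159 for miR-214-3p and 0.388 for miR-145a-5p (Benjamini-Hochberg, edgeR quasi-likelihood test). The log2 change of the ratio was 1.57 (standard error 1.35) for miR-143-3p, -0.13 (1.08) for miR-199a-3p and -0.14 (1.17) for miR-199b-3p, each with an adjusted p of 0.992 (same test). None of the 5 rows passed, where 4 of 180 tested miRNAs, or 2.22%, did. In simulated counts that gave every miRNA the common dispersion of these data, 0 of 200 changes of this ratio by a log2 of 3 were called. The real miRNAs differ in their dispersion, so this does not give the power for the 5 rows. DESeq2 called miR-214-3p alone (adjusted p = 0.0209), TMM factors did too (Benjamini-Hochberg adjusted p = 0.0406, edgeR quasi-likelihood test), and limma voom called none. Over all tested miRNAs these fits called 14, 13 and 0 of 180. Over 17 alternatives the adjusted p of miR-214-3p ranged from 0.0209 to 0.510, with 2 under 0.05, and that of miR-145a-5p from 0.0709 to 0.862. The median of the 5 rows was 1.57, or 1.54 with the bounds, against -0.08 over all tested miRNAs, with the miR-199-3p sequence counted as 2 rows.

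The core CELL motif was searched in the mature sequences as the letters AUUA and AUUG, on the mature strand alone. AUUG starts at base 15 of miR-199a-3p and miR-199b-3p, as capitals show in acaguagucugcacAUUGguua. Neither of these forms is found in miR-199a-5p, miR-214-3p or miR-214-5p. The study also scanned for an extended CELL motif, which was not searched here, and counted miR-214-3p among the miRNAs that hold it. The paper placed miR-214-3p among miRNAs with both CELL and hEXO motifs, and reported that PCBP2 and SYNCRIP bind it. In the paper, this binding of PCBP2 required SYNCRIP. For this set of miRNAs, the paper also reported from RT-qPCR of the EV/cell ratio that silencing of PCBP2 released loading into EVs. The binding and RT-qPCR data were not examined here. Of 1679 mouse mature names with a RefSeq sequence, measured here or not, 149, or 8.87%, hold AUUA or AUUG, and 114, or 6.79%, hold AUUG. Among the tested miRNAs, 156 of 180 had a sequence and 25 of them, or 16.0%, held the motif. The median log2 change of the EV/cell ratio in shPCBP2 was -0.01 for these 25 and -0.15 for the 131 without it, while miR-199a-3p, with the motif, was at -0.13. The hEXO motif was not searched here, so this split cannot test the motif pair that the paper describes.

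Among the tested miRNAs outside these clusters, those whose levels over the 8 libraries were most like the summed level of the 8 rows were miR-486b-5p, miR-486a-5p, miR-223-3p, miR-150-5p and miR-379-5p, with Pearson's r from 0.961 to 0.970 on log2 levels. These are descriptions over 8 libraries that share the split into cells and EVs. The copies of miR-486 are near-identical and share reads. Most of these are known from blood cells, miR-486 from the erythroid lineage, and miR-223 and miR-150 from myeloid cells and lymphocytes.

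miRNAs of other cell types moved with these results, in lists that were chosen by lineage. Of 5 erythroid miRNAs, 2 were tested and both were higher in EVs in shCTR and in shPCBP2, and the summed level of the list was 7.65 to 22.6 in cells and 1879 to 2385 in EVs. The defining miR-451a was at 0 in all cell libraries and had 3595 to 4430 reads in the EV libraries. Of 4 leukocyte miRNAs, 2 were tested and both were higher in EVs in both lines, with a summed level of 0.786 to 5.05 in cells and 234 to 422 in EVs. miR-142a-3p, which defines blood cells, had 0 reads in cells and 1117 to 2157 in EVs. These lists took 9.63 to 11.6% and 1.37 to 1.70% of the mouse reads in EVs, and at most 0.00317% and 7.07e-04% in cells. Their part in the higher EV levels of miR-143/miR-145 and miR-199/miR-214 was not tested.

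Among all tested miRNAs, 107 of 180, or 59.4%, were lower in EVs in shCTR, and 108 of 180, or 60.0%, in shPCBP2. The remaining lists held few miRNAs that were higher in EVs. Of 9 further miRNAs that stromal cells express, 7 were tested, and in EVs 0 were higher and 5 were lower in both lines, namely miR-21a-5p, miR-22-3p, miR-100-5p, miR-125b-5p and miR-152-3p. In shCTR their log2 EV/cell differences were -7.42, -5.57, -4.74, -4.68 and -4.04. The remaining tested miRNAs of the list, miR-10b-5p and miR-99a-5p, were at -0.92 and -0.48 in shCTR, without a call. The summed level of the list was 29480 to 41070 in cells and 483 to 704 in EVs. In cells miR-21a-5p alone made up most of this sum, at 24090 to 32210. Of 6 hepatocyte miRNAs 5 were tested, and in shCTR 0 were higher and 2 lower in EVs, while in shPCBP2 miR-148a-3p was higher and the same number lower. In shCTR the log2 EV/cell difference was -5.62 for miR-192-5p and -6.84 for miR-194-5p. It was 1.99 for miR-101a-3p, 1.02 for miR-122-5p and 2.70 for miR-148a-3p, without a call. The summed level of the list was 13180 to 20600 in cells and 212 to 327 in EVs. Most of the sum in cells came from miR-194-5p alone, at 12380 to 19230. miR-122-5p had 795 to 2327 reads in EVs. The endothelial pair from miR-126a was tested without a call, with summed levels of 110 to 170 in cells and 101 to 187 in EVs. Of 3 muscle miRNAs 2 were tested, 0 were higher and 1, miR-206-3p, was lower in EVs, and the summed level was 696 to 1112 in cells and 3.46 to 5.85 in EVs. None of the 5 miRNAs of the epithelial miR-200 family could be tested, and their summed level was 138 to 189 in cells and 0 to 6.82 in EVs.

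Little came from the other arms of the clusters. miR-143-5p and miR-145b had 0 reads in all libraries, and miR-145a-3p had 15 reads in replicate 2 of shCTR cells and 0 elsewhere, so that none of the 3 could be tested. In that library miR-145a-3p had as many reads as miR-145a-5p.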

How the data were processed

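Small RNA was sequenced from 8 libraries, with 2 biological replicates in each of 4 groups. Libraries were made by the authors with the NEXTFLEX kit and sequenced on a NovaSeq instrument. They trimmed adapters and removed short or low-quality reads with FastqToolkit, kept forward reads, aligned them with mirPRo, which uses NovoAlign, to miRBase hairpins plus the spike-in, and counted reads per mature miRNA. The deposited values are raw counts, the largest of which carry 6 significant digits. Spike-in reads were used only for scaling. Groups and replicate numbers were taken from the sample titles. The descriptions number the shPCBP2 libraries differently.

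A miRNA was tested if 2 or more libraries of each compartment held 1 or more of its reads, the filter of the study. The edgeR quasi-likelihood test (edgeR 4.0.16, R 4.3.3) was run on all 8 libraries with spike-in counts as library sizes, the prior count at 0.125 and terms for compartment, shRNA and their interaction, and p-values were adjusted by the Benjamini-Hochberg method over the 180 tested miRNAs of each contrast, with 0.05 as threshold. The fit had a common dispersion of 0.693 (4 residual and 2.10 prior degrees of freedom), and standard errors were derived from the F statistic. With 2 libraries per group, p-values measure the spread between these libraries. Exact permutation tests used log2 of the level with 1 count added. The alternatives were other scalings, other filters, DESeq2 1.42.0, limma voom (limma 3.58.1), a replicate block, only the 4 libraries compared, miR-199a-3p and miR-199b-3p summed, and each library left out in turn. Other steps used Python 3.11.15, pandas 2.3.3, numpy 2.4.6, scipy 1.17.1 and matplotlib 3.10.9. The model fit was checked on simulated counts with known changes in 200 of 900 miRNAs. With the common dispersion of these data given to every miRNA, it called 0 of the 200 at a log2 change of 3 in the EV/cell ratio. With the dispersion scaled by 0.1 it called 188. For EVs against cells in shCTR it called 5 of the 200 at a log2 change of 3 and 161 at 5. A missing call therefore does not show that there was no change.

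All 8 miRNAs are reported with their counts, and the 5 tested ones in every comparison, along with other miRNAs of the clusters and of stromal cells, markers of other cell types, and the 5 miRNAs most like the summed 8 rows by Pearson's r over the libraries. The miRNAs and the lists were chosen with earlier results of these data known. Sequences and positions come from RefSeq, and neighbouring genes from the GENCODE annotation of GRCm38. The level of PCBP2 itself was not analysed here.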

Additional observations from a re-analysis of the deposited data

How the results depend on the processing

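With the 2 libraries in each group, few of the calls are firm. The log2 difference of EVs against cells kept its sign for each of the 5 tested miRNAs in all 18 alternatives. In shPCBP2, miR-145a-5p and miR-214-3p passed in every alternative with 2 libraries in each group. But they had no read in shPCBP2 cells, so these libraries show no spread for them. Both met the cell part of the filter through shCTR alone. Of the 5 tested miRNAs, the number called higher in EVs in shCTR was 1 with limma voom and 0 with the replicate block. Over all tested miRNAs these fits called 148 and 111 of 180 in either direction, where 119 were called in the fit used above. With a library left out, some or all of the calls in shCTR were lost in several fits. Among these were the fits without a library of shCTR cells or without replicate 1 of shCTR EVs. The log2 difference in shCTR then ranged from 2.147 to 3.812 for miR-143-3p, 3.568 to 4.46 for miR-145a-5p, 1.861 to 3.075 for miR-199a-3p and 2.835 to 3.483 for miR-214-3p. In shPCBP2 the number called was 3 with limma voom, with the replicate block and with only the 4 libraries compared. Over all tested miRNAs these fits called 144, 111 and 118 of 180, where 122 were called in the fit used above. Calls in shPCBP2 were also lost without any single cell library. With a library left out, the log2 difference in shPCBP2 ranged from 3.858 to 5.102 for miR-143-3p and from 2.035 to 3.058 for miR-199a-3p. For shPCBP2 against shCTR in cells, TMM factors gave 1 call, DESeq2 2 and only the 4 libraries compared 1, where 5, 18 and 39 of 180 tested miRNAs were called and 0 with the spike-in and all libraries. For the EV/cell ratio, TMM factors and DESeq2 gave 1 call each, where 13 and 14 of 180 were called. The cause was not tested. For shPCBP2 against shCTR in EVs, no alternative with 2 libraries in each group called any of the 5. Of all 180 tested miRNAs, DESeq2 called 27 there and only the 4 libraries compared gave 1.

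The replicate block and the pairing it assumes rest on numbers alone. The replicate differences of same-numbered libraries correlated between -0.0977 and 0.0414 over the 180 miRNAs, and at -0.411 between the groups of cell libraries. These correlations cannot show whether libraries came from the same culture, since the titles and descriptions number the shPCBP2 libraries differently. The pairing is therefore not known. Crossing the numbers of cell shPCBP2, an alternative chosen after seeing the data, gave 0 calls among the 5 in cells.

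Signs turned only for differences within their errors. In EVs, shPCBP2 against shCTR ranged with a library left out from -0.43 to 0.83 for miR-143-3p and from -1.02 to 0.19 for miR-199a-3p and miR-199b-3p, and was 0.028 for miR-214-3p with the total mouse count. In cells, TMM factors gave 0.028 for miR-199a-3p and 0.037 for miR-199b-3p, and leaving out a library gave -1.003 to 0.020 and -0.999 to 0.032. The EV/cell ratio of miR-199a-3p was 0.15 with the total mouse count, 0.050 with limma voom and -0.62 to 0.60 with a library left out, and that of miR-199b-3p was 0.14, 0.012 and -0.63 to 0.59.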
